A study of Mus musculus with 4 samples.

Results

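Rab proteins are the largest branch of the Ras superfamily of small GTPases, and their transcripts were read here in hippocampal CA1 of mice at 4 times after foot shock. The members are the probe sets of the Affymetrix MG-U74Av2 array whose single gene symbol begins with Rab followed by a digit. They numbered 51 of the 12488 probe sets and stood for 39 of the 8251 genes that the array names singly. Of these, 44 probe sets of 33 genes encode Rab GTPases, and 5 probe sets of 4 genes, Rab3ip, Rab3il1, Rab11fip5 and Rab5if, encode binding partners or regulators. The other 2 probe sets are named for transcripts opposite to Rab10 and Rab26. Both symbols matched the rule by name alone.

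The samples are total RNA of CA1 from young male C57BL/6J mice, taken 1, 2, 4 or 6 h after the last of 3 foot shocks. Each shock was of 0.5 mA for 1 s, and the shocks were 2 min apart. All 4 samples carry the label shock alone, and their mice entered the context 2 h ahead of the shocks. They do not say how many animals a sample holds. Each time has 1 array, so no p-value is given, the values have no replicate error, and untreated mice were not analysed here.

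A Rab protein switches between a GDP-bound form, kept soluble in the cytosol by a GDP dissociation inhibitor, and a GTP-bound form on a membrane, where it recruits tethers, motors and other effectors. Exchange factors switch it on and GTPase-activating proteins switch it off, and lipid groups added near its end by geranylgeranyl transferase hold it in the membrane. Each Rab marks its own compartment. In neurons Rab3 proteins ride on synaptic vesicles, Rab5 and Rab11 serve endosomes that move receptors into and out of spines, and Rab7 carries cargo and signalling endosomes towards lysosomes and the cell body.

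The intensities are linear and in arbitrary units, and each array was scaled to a common trimmed mean. Values below a floor of 100.8, the 40th percentile of all scaled intensities, were taken as a bound. A probe set's brightness depends on its oligonucleotides as well as on its transcript, so levels are compared between arrays and never between probe sets. Sums over marker probe sets, given below, are likewise compared between arrays only. In them the brightest probe sets weigh most, and values below the floor are included. RNA quality, read from the ratio of the 3' to the 5' actin control, differed at 2 h, with 2.70 against 1.84, 1.79 and 1.74 at 1, 4 and 6 h. For Gapdh it was 4.82 at 2 h, against 3.98, 3.85 and 3.24. The array at 6 h held transcripts of the choroid plexus, with Ttr, which encodes transthyretin, at 4482, against 111, 89.9 and 198 at 1, 2 and 4 h. Of the 4 markers of CA1 pyramidal neurons on the array, Wfs1, Neurod6 and Pou3f1 lay above the floor on all 4 arrays. Camk2a lay below it on 3, and a dim probe set does not show that its transcript is absent.

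The promoters of 6 Rab genes are shown because the results below turn on them. Rab3a and Rab3b were far lower on the 2 h array than on the 1 h array, both probe sets of Rab31 shared their highest and lowest arrays, and Rab7, Rab9 and Rab24 were all highest at 6 h. Each line gives the 250 bases before the annotated start, 5′ to 3′ on the gene's strand, from RefSeq on GRCm38.p6. Capitals mark TGACG, the core of the cyclic AMP response element, on either strand. The windows are chr8:70754453-70754702 (+) for Rab3a, chr4:108878820-108879069 (+) for Rab3b, chr17:65772753-65773002 (-) for Rab31, chr6:88045271-88045520 (-) for Rab7, chrX:166479868-166480117 (-) for Rab9 and chr13:55321981-55322230 (-) for Rab24.
Rab3a: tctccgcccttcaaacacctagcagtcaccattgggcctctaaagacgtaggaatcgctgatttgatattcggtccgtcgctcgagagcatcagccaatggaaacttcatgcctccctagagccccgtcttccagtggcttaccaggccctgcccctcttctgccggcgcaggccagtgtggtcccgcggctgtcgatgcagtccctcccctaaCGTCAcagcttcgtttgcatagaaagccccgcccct
Rab3b: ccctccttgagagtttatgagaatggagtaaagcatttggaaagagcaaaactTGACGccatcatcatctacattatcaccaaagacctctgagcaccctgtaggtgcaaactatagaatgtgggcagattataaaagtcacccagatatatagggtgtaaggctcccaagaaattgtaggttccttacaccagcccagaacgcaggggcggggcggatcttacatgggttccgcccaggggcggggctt
Rab31: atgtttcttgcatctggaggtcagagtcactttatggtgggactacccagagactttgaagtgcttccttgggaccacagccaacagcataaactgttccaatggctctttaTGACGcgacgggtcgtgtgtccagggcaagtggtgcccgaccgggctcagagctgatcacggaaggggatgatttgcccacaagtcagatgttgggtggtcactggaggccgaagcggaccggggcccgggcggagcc
Rab7: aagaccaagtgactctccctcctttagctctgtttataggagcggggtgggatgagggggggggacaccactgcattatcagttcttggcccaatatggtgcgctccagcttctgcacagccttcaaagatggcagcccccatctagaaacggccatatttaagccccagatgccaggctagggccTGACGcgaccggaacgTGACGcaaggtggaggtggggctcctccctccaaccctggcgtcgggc
Rab9: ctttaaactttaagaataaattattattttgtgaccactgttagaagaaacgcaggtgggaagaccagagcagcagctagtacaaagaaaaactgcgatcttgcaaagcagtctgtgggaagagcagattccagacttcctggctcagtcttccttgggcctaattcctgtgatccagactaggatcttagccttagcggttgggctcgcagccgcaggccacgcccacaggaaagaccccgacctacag
Rab24: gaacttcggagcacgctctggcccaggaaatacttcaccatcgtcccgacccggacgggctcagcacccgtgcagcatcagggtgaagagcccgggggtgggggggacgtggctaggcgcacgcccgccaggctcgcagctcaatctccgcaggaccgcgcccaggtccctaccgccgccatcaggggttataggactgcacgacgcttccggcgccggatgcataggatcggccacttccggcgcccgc
Rab3a and Rab7 have a further annotated start each, with another window not printed, and neither of those windows held TGACG. In the printed windows the TGACG core began 36 bases before the start in Rab3a, 197 in Rab3b and 138 in Rab31. The printed Rab7 window held it at 64 and at 48 bases. The Rab9 and Rab24 windows held none.

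Among the 36 of 39 member genes with a promoter in the table, 22 held TGACG in at least 1 window. By window that was 50% of 44, against 17.8% of all 32851 windows and 20.2% of the 21262 windows of protein-coding genes. The Rab windows were also richer in G and C, with a median of 63.0%, against 52.4% for all windows and 55.6% for those of protein-coding genes. The full element TGACGTCA, which contains the core on both strands, lay in 2 of the 44 Rab windows, those of Rab25 and Rab5a. That was 4.55%, against 1.55% of all windows and 1.92% of protein-coding ones. The E-box CACGTG lay in 15.9% of Rab windows, 6.02% of all and 6.63% of protein-coding ones. For the GC box GGGCGG these shares were 68.2%, 32.7% and 42.6%. TATAAA lay in 6.82% of Rab windows, 12.4% of all and 11.6% of protein-coding ones. The site GCGTGGGCG, bound by Egr1, lay in 0 of the 44 Rab windows, in 0.536% of all and in 0.72% of protein-coding ones. All these motifs were searched on both strands, and a match is a stretch of letters and not a measured site.

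Above the floor on all 4 arrays were 38 of the 51 probe sets, or 74.5%, where 51.9% of all probe sets other than controls were. These 38 stand for 30 genes, 26 of them Rab GTPases. A single probe set was above it on 3 arrays, 1 on 2 arrays and 3 on 1 array, and 8 lay below it on all 4. Most of the 38 differed little between arrays. The ratio of the highest to the lowest array ran from 1.05-fold for a Rab33b probe set to 2.12-fold for Rab3a, with a median of 1.26-fold, against 1.32-fold over the 6442 probe sets of the array that passed the same floor. It stayed under 1.2-fold for 14 of 38 (36.8%, against 26.2% of all) and reached 1.5-fold for 7, or 18.4%, against 27.9% of all. The 7 were Rab3a, Rab3b, Rab14 (a dim second probe set), Rab21, Rab25, Rab31 (its dimmer probe set) and the exchange factor gene Rab3il1. Only Rab3a reached 2-fold, as 6.33% of all did, and 16 reached 1.3-fold, or 42.1%, against 54% of all. Without the 2 h array 5 of 38 reached 1.5-fold, against 17.1% of all, with Rab3a and Rab14 no longer among them. Without the 6 h array 6 did, against 19.6%, and Rab31 was no longer among them.

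Dim probe sets varied more than bright ones over the whole array. Where the mean intensity was 500 or more, 2 of 24 Rab probe sets reached 1.5-fold, against 12.4% of all. Their median range was 1.24-fold, and that of all such probe sets was also 1.24-fold. Under 500, 5 of 14 reached it, against 45.2% of all. The Rab probe sets thus lay near or under the array's own share at either brightness.

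**Figure D1:**
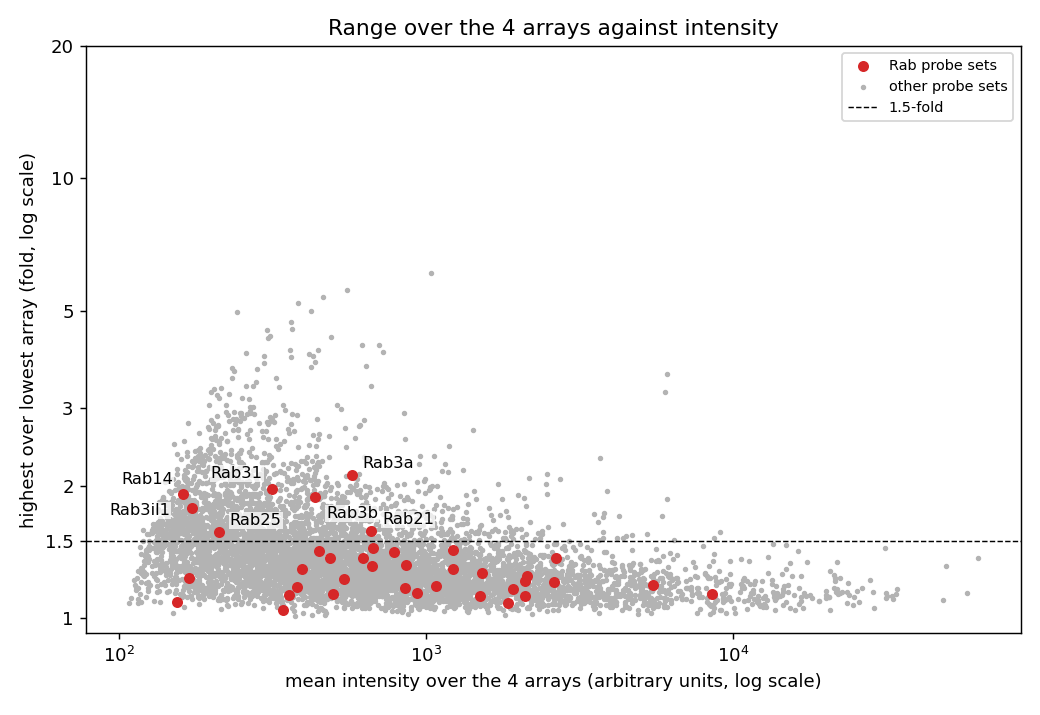
Ratio of the highest to the lowest array (fold, log scale) against mean intensity over the 4 arrays (arbitrary units, log scale) for the 38 Rab probe sets (red) and the other probe sets above the floor on all 4 arrays (grey). The 7 Rab probe sets past 1.5-fold (dashed line) are named, with Rab3a highest at 2.12-fold, and the brightest Rab probe sets lie low in the cloud.

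The array at 2 h was where Rab probe sets stood lowest most often. Of 38, 20 were lowest at 2 h, and 5, 6 and 7 at 1, 4 and 6 h, while 26.7% of all probe sets were lowest at 2 h. The highest array was that of 1 h for 10 and of 2 h for 7, of 4 h for 9 and of 6 h for 12, and 23.5% of all probe sets were highest at 6 h. Against the mean of the other 3 times, the median log2 difference at 2 h was −0.08, with 13 above and 25 below, where the median over all probe sets was 0.01 and 52.0% were above. At 6 h it was 0.07, with 22 above and 16 below, against −0.002 and 49.6% over all. At 1 h it was 0.00, with 19 above and 19 below, and at 4 h 0.04, with 21 above and 17 below. Over all probe sets, the robust SD of log2 differences of single probe sets between 2 arrays was 0.26 to 0.31 by pair. That spread does not measure how far a median of 38 probe sets would vary. After scaling to a common median, which moved all probe sets by 0.12 (log2) between 6 h and 2 h, 22 of 37 Rab probe sets were lowest at 2 h, against 36.7% of all. The actin ratio of 2.70 belongs to this same 2 h array, and the part of RNA quality in this order was not tested.

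**Figure D2:**
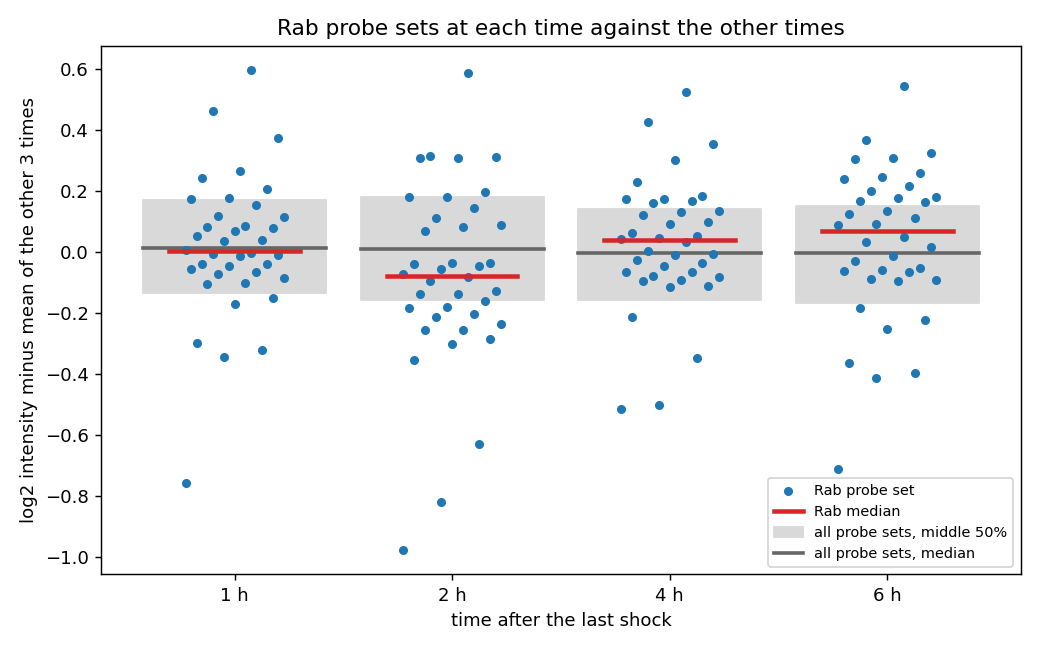
Log2 intensity at each time minus the mean of the other 3 times (vertical axis) for the 38 Rab probe sets (blue points, red line at their median), with the median and middle 50% of all 6442 probe sets in grey, 1 array per time. The Rab median lies at −0.08 at 2 h and 0.07 at 6 h, and at each time most Rab points lie in or near the grey band.

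Single arrays seldom stood apart, for Rab probe sets as for all probe sets of the array. None was at least 1.5-fold above each other array at 1 h, 2 h, 4 h or 6 h, where 0.574%, 1.18%, 0.202% and 0.326% of all probe sets were. Below each other array were 1 at 1 h, against 0.931% of all, 2 at 2 h, against 1.12%, and none at 4 h or 6 h, against 1.01% and 1.16%. The single one at 1 h was Rab3il1, and those at 2 h were Rab3a and the dim Rab14 probe set.

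Few probe sets passed 1.5-fold between any 2 times, among the Rab probe sets as among all. At 2 h over 1 h, 1 was higher (Rab3il1), against 5.14% of all, and 3 were lower (Rab3a, Rab3b and the dim Rab14 probe set), against 4.75%. At 4 h over 1 h, 2 were higher (Rab25 and Rab3il1), against 3.29%, and 2 lower (Rab21 and Rab3b), against 4.92%. At 6 h over 1 h, Rab3il1 was higher, against 3.6% of all, and none was lower, against 5.57%. At 6 h over 2 h, 3 were higher (Rab3a, Rab3b and Rab14), against 4.47%, and Rab31 was lower, against 6.64%. At 4 h over 2 h, Rab14 and Rab3a were higher, against 4.39%, and none was lower, against 6.33%. At 6 h over 4 h, Rab3b was higher, against 3.68%, and Rab25 and Rab31 lower, against 3.87%. Shares of 38 made by 1, 2 and 3 are 2.63%, 5.26% and 7.89%, against 3.29% to 6.64% of all over these comparisons. Of the 12 counts, 10 were from 1 to 3 and 2 were 0, both of them for lower values, at 6 h over 1 h and at 4 h over 2 h. These pairs share arrays, and a Rab that is low at 2 h enters 3 of them.

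The Rabs of regulated secretion included the widest range of the family. Rab3a, the Rab of synaptic vesicles, cycles on and off the vesicle with release and is needed for presynaptic potentiation at mossy fibre synapses. It read 330.5 at 2 h, against 699.6, 643 and 615 at 1, 4 and 6 h. The 2 h value was thus the lowest and stood apart from 3 values that lay close together. It was 0.98 (log2) below the mean of the other times and at least 1.5-fold below each of them, which held for 2 of the 38 Rab probe sets and for 1.12% of all. The second probe set of Rab3a was below the floor on all 4 arrays, at 10.9 to 88.9, so a single probe set carries this gene.

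Rab3b, a close relative that sits on synaptic and secretory vesicles, read 569, 301, 319 and 554 at 1, 2, 4 and 6 h. It was high on the first and last arrays and low on the middle ones, at 0.53 times its 1 h value at 2 h and 1.74 times its 4 h value at 6 h. Rab3a and Rab3b therefore were both low at 2 h and differed at 4 h, where Rab3a had 1.95 times its 2 h value and Rab3b 1.06 times. After scaling to a common median the highest array of Rab3b was 6 h and no longer 1 h. Rab3d, best known on secretory granules, was below the floor throughout, at 18.9 to 50.4. Whether lower values at a time mean fewer cells of a type or less RNA in each cannot be told apart in tissue RNA. Beside the 2 h values stands the actin ratio of 2.70. Of the 3 CA1 markers above the floor on all 4 arrays, Wfs1 and Neurod6 were lowest at 2 h and Pou3f1 was lowest at 4 h, so that 1 lay above and 2 below the other times at 2 h. The summed intensity of the 4 CA1 markers on the array was 3071, 2770, 4264 and 3689 at 1, 2, 4 and 6 h. Snap25, Syt1, Nefl, Eno2 and Stmn2, which mark neurons of all kinds, were not low as a group on the 2 h array. Of these 5, 3 exceeded their mean on the remaining arrays and 2 fell short, and the group median was 0.04 (log2). Their sum was 35147, 34611, 30933 and 32604 in the same order of times. The part of RNA quality and of CA1 cells in the 2 h values was not tested.

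**Figure D3:**
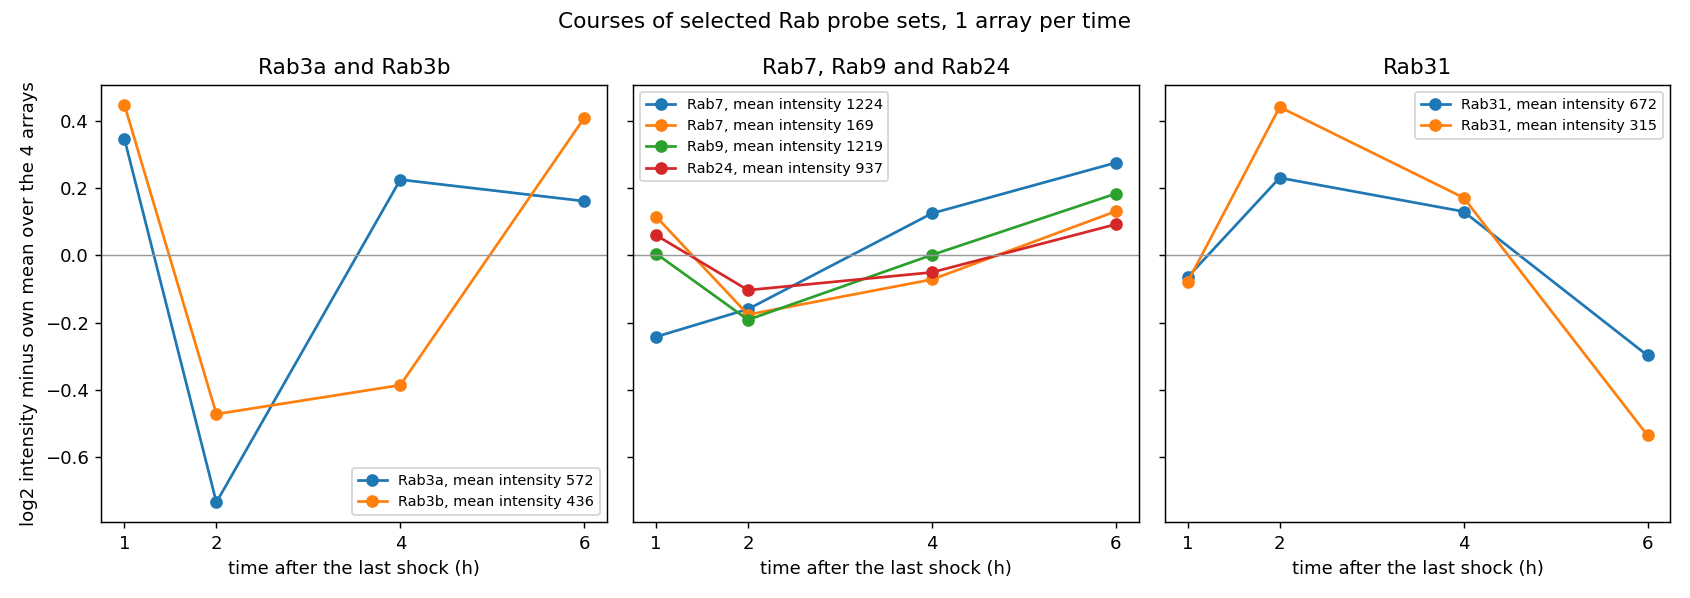
Log2 intensity of each probe set minus its own mean over the 4 arrays, by time after the last shock (h), for Rab3a and Rab3b (left), Rab7, Rab9 and Rab24 (middle) and both probe sets of Rab31 (right), 1 array per time. Rab3a dips at 2 h and Rab3b at 2 h and 4 h, the 4 late endosomal probe sets end highest at 6 h, and both Rab31 probe sets peak at 2 h and are lowest at 6 h.

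Rabs of late endosomes and lysosomes were highest at 6 h on all 4 probe sets. Rab7, which drives the fusion of late endosomes with lysosomes and their transport towards the cell body, read 1024, 1084, 1321 and 1467 at 1, 2, 4 and 6 h. It was higher at each later time, the only Rab probe set of 38 with such a course, which 3.9% of all probe sets had. The 6 h value was 1.43 times the 1 h value.
The second probe set of Rab7, a dimmer one whose name marks probes shared between transcripts, read 182, 149, 160.2 and 184. It was likewise highest at 6 h but differed by 1.01-fold between 6 h and 1 h, so the course of the brighter one over time was not shared. Rab9, which returns mannose 6-phosphate receptors from late endosomes to the Golgi, read 1379 at 6 h, against 1218.5, 1063 and 1215 at 1, 2 and 4 h. Rab24, a Rab linked to autophagy, read 997 at 6 h, against 975, 871 and 903.

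For these 4 probe sets the median at 6 h was 0.21 (log2) above the other times, with 4 of 4 above, where 49.6% of all probe sets were above. At 2 h it was −0.22, with 4 of 4 below, where 52.0% of all were above. Over all probe sets 23.5% were highest at 6 h, and of the 38 Rab probe sets 12 were, these 4 included. The compartments that set the group apart were assigned by hand. With 4 probe sets of 3 genes these counts are small, and no test was made. The ranges were modest, from 1.15-fold for Rab24 to 1.43-fold for Rab7, and none reached 1.5-fold. The direction held at both times after quantile normalization, at 0.24 and −0.20. With arrays set to a common median the values were 0.28 and −0.31. Scaling to a common median moved all probe sets the same way, to a median of 0.07 at 6 h, with 3979 of 6449 above, and of −0.07 at 2 h. Under it 18 of 37 Rab probe sets were highest at 6 h, and the share of all probe sets highest there was not counted. All 4 late endosomal probe sets were highest at 6 h under each of these scalings. The 6 h array held Ttr at 4482 and other choroid plexus markers, of which Kl, Folr1 and Igf2 were also highest there and Foxj1 lowest. The summed intensity of the 5 markers on the array was 7868 at 6 h, against 1509.6 to 2079 at the other times. Of the 6 oligodendrocyte markers above the floor, 4 lay above and 2 below the other times at 6 h, where Mag, Mog, Mbp and Qdpr were highest and Mal was lowest. Cnp was below the floor on all 4 arrays. The summed intensity of the 7 oligodendrocyte markers on the array was 28274 at 6 h, against 25520 to 27350 at the other times. The part of other cell types in the 6 h values was not tested.

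Rabs of early and recycling endosomes formed the largest group, with 18 probe sets of 14 genes, 13 of them above the floor on all 4 arrays. They went different ways, with 7 above and 6 below the other times at 2 h and 6 above and 7 below at 6 h. Rab31, a relative of Rab5 that acts between the trans-Golgi network and endosomes, read 636, 781, 728 and 541 at 1, 2, 4 and 6 h. Its second, dimmer probe set read 289.8, 416, 345 and 211.
Both were highest at 2 h and lowest at 6 h, with the order of the 4 arrays the same, although the spans were 1.44-fold and 1.97-fold. Among 8 Rab genes with at least 2 probe sets above the floor, Rab31 was the only one whose 2 brightest shared both the highest and the lowest array, a share of 12.5% against 13.4% of 725 genes of the array. After scaling to a common median the spans were 1.33-fold and 1.81-fold. The dimmer one is of a kind whose name marks probes shared with other transcripts, and both lows lie on the 6 h array, where Ttr stood at 4482.

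Rab5 isoforms, which drive the homotypic fusion of early endosomes, were all highest at 1 h and differed in the size of their spans. Rab5a read 1918, 1815, 1773 and 1899 at 1, 2, 4 and 6 h, lowest at 4 h with a span of 1.08-fold. Rab5c read 710.3, 593, 516.5 and 675, likewise lowest at 4 h, with 1.37-fold between 1 h and 4 h. Rab5b read 147 at 1 h and lay below the floor later, at 70.5 to 93.1, so it was at least 1.46-fold higher at 1 h. Rab5a and Rab5c thus had the same order of the 4 arrays, with Rab5a nearly level. Rab21, which carries integrins through early endosomes, read 504 at 4 h, against 795, 718 and 636.5 at 1, 2 and 6 h. Its low at 4 h was 1.58-fold under the 1 h value.

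Rab4 isoforms, which return receptors quickly from early endosomes to the surface, were both lowest at 6 h. Rab4b read 589, 571, 520.2 and 479 and was lower at each later time, the only one of the 38 Rab probe sets above the floor with such a course, which 4.86% of all probe sets had. Rab4a read 1142, 1159, 1030.4 and 977. Their spans were 1.23-fold and 1.19-fold. After scaling to a common median 2 of 37 Rab probe sets were lower at each later time and 2 were higher at each later time. The shares of all probe sets with such courses under that scaling were not counted.

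Rab11 proteins govern the slower route through the recycling endosome, from which AMPA receptors reach dendritic spines. Rab11a read 1545, 1365, 1446 and 1735, and its second probe set 437.5, 338, 402 and 399. Both were lowest at 2 h, but the brighter was highest at 6 h and the dimmer at 1 h. Rab11b, the isoform rich in brain, read 2118 at 6 h, against 2733, 2908 and 2812 at 1, 2 and 4 h. At 6 h Rab11b was thus at its lowest while the brighter Rab11a probe set was at its highest. Rab25, the epithelial member of this branch, was dim, at 174, 216, 273 and 182, highest at 4 h with 1.57-fold over 1 h.

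Rab14, which works between Golgi and endosomes, had 3 probe sets. The brightest read 5268.5, 5028, 5617 and 6005 and spanned 1.19-fold. The second read 102 at 2 h, close to the floor, against 163, 195 and 183.5, and it spanned 1.91-fold. The third lay at 84.2 to 112, above the floor on 3 arrays. The 2 brightest agree on 2 h as the lowest array and differ in size, so the larger drop rests on a dim probe set at its limit. Rab17, Rab20 and Rab35 were dim. Rab17 lay above the floor at 4 h alone, at 124 against 11.7 to 17.2, and Rab20, at 47.0 to 57.7, and Rab35, at 32.4 to 51.4, lay below it on all 4.

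Rabs of the endoplasmic reticulum and Golgi spanned little, with a median range of 1.16-fold over 9 probe sets of 7 genes, a highest of 1.42-fold and none past 1.5-fold. Rab6a, which directs transport within and out of the Golgi, read 7888, 8942, 8948 and 8399, and its second probe set 1486, 1420.5, 1464.5 and 1601. Rab2a, which acts between endoplasmic reticulum and Golgi, read 1899, 2099.7, 1804 and 1849.9, and its second probe set was at 1.4 to 10.2. Rab1a, needed for the same route, read 543, 477, 483 and 480.5, with a second probe set at 7.1 to 78.0. Each of these bright probe sets spanned less than 1.2-fold.
Rab18, a Rab of the endoplasmic reticulum and lipid droplets, was higher on the later arrays, at 2858 at 4 h and 2836 at 6 h, against 2378 at 1 h and 2359 at 2 h. Rab33a, a Golgi Rab of brain and immune cells, read 566 at 6 h, against 467, 413 and 499 at 1, 2 and 4 h. Rab34, a Golgi Rab that positions lysosomes, read 524 at 6 h, against 439, 368 and 453. Rab33a and Rab34 were both lowest at 2 h and highest at 6 h, with spans of 1.37-fold and 1.42-fold. Rab33b, which binds the autophagy protein Atg16l1, had probe sets that differed. One read 352, 337, 342 and 340.5, the smallest span of the family, and the other, of the kind with shared probes, read 736, 911.5, 844 and 643.

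**Figure D4:**
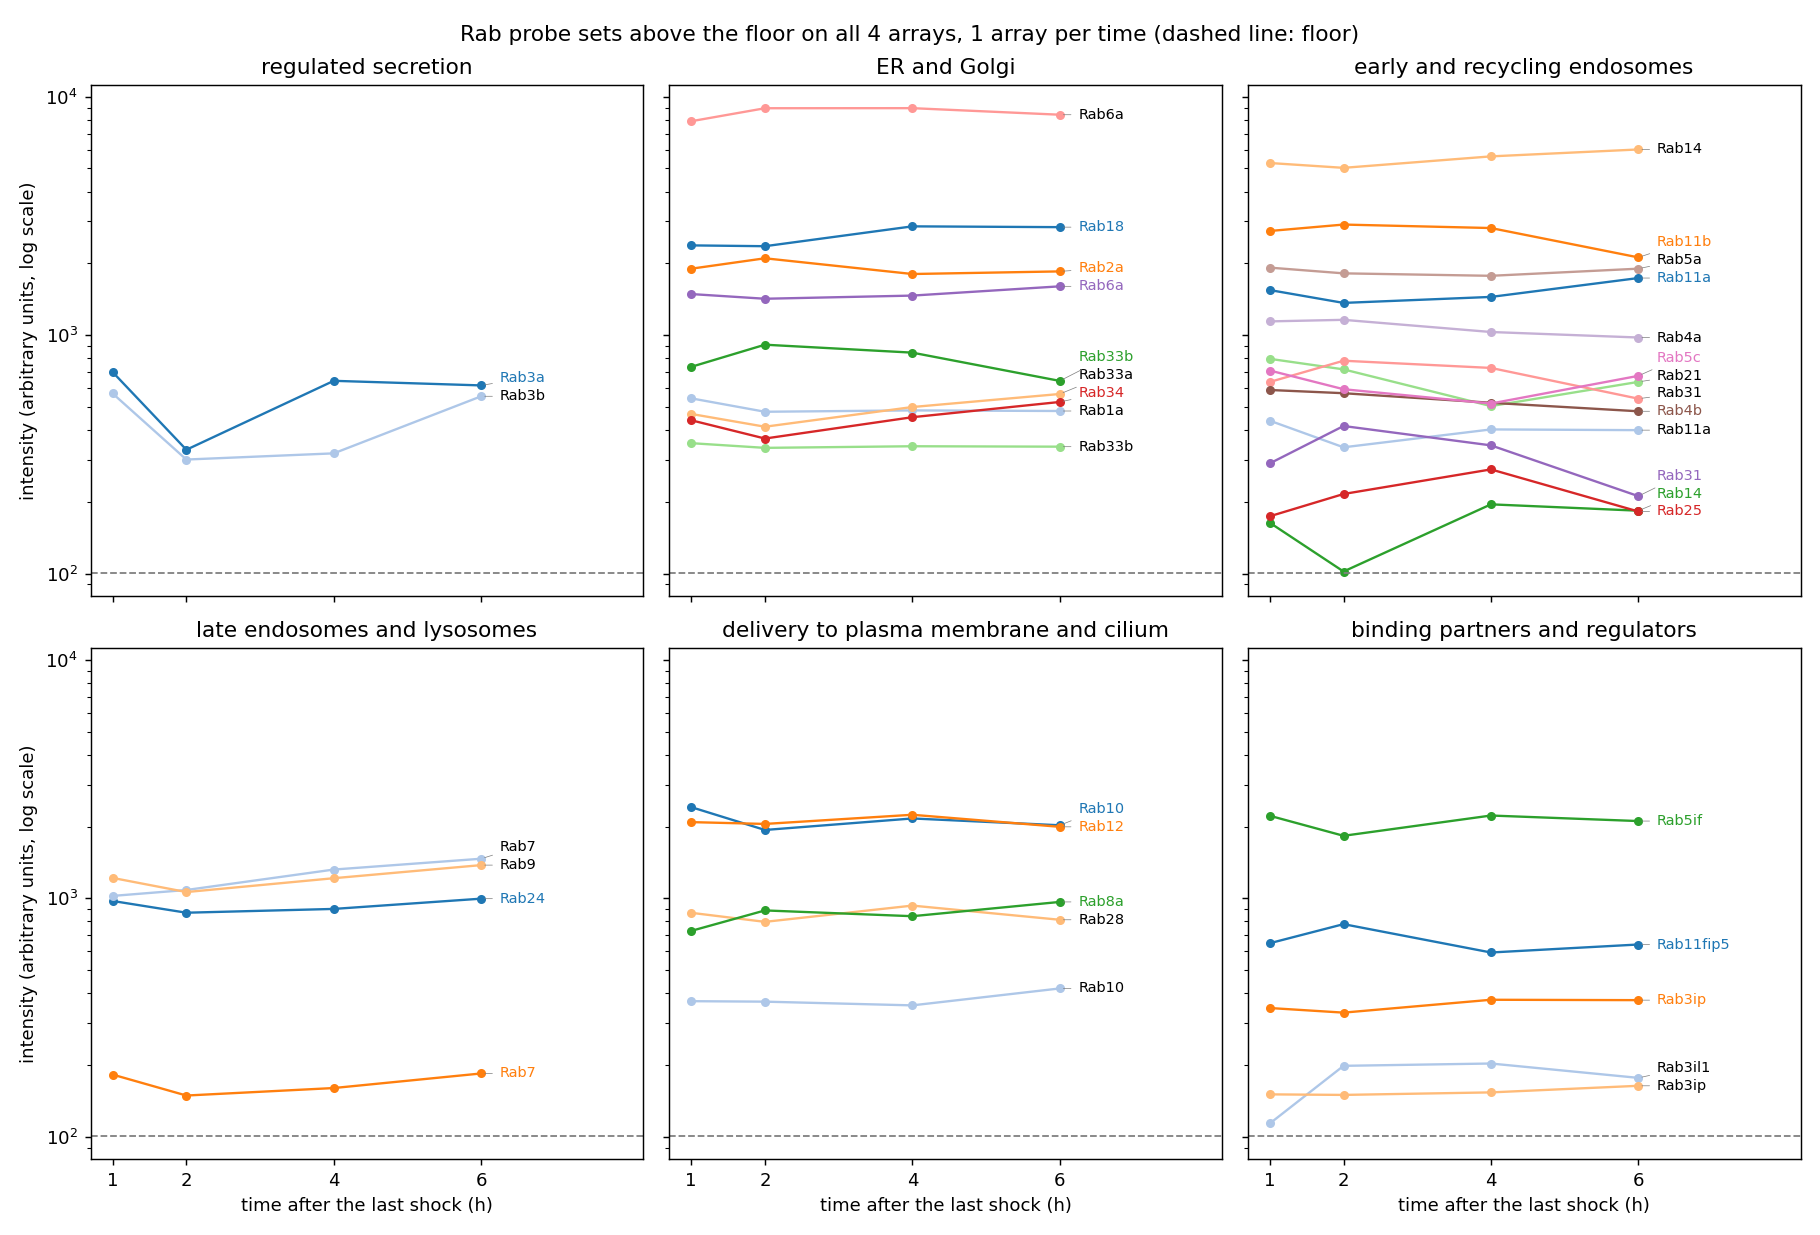
Intensity (arbitrary units, log scale) by time after the last shock (h) of the 38 Rab probe sets above the floor on all 4 arrays, 1 line per probe set, in panels by compartment or role, with the floor of 100.8 dashed. Most lines of the endoplasmic reticulum and Golgi panel run nearly level, while in the secretion panel Rab3a dips at 2 h and Rab3b at 2 h and 4 h.

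Rabs that deliver cargo to the plasma membrane and cilium spanned about as little, with a median range of 1.18-fold over 5 probe sets, a highest of 1.32-fold and none past 1.5-fold. Rab10, which delivers membrane to growing axons, read 2413, 1936, 2164 and 2026.0, and its second probe set 371, 369, 356 and 419. Its probe sets were highest at different times, 1 h for the brighter and 6 h for the dimmer. Rab8a, which serves the surface and the cilium, read 966 at 6 h, against 731, 890.2 and 842 at 1, 2 and 4 h. Rab12 read 2088, 2052, 2242 and 1996, and Rab28, linked to photoreceptor cilia, 869.9, 797, 933 and 813. Both were highest at 4 h by a small margin. Rab8b, at 24.1 to 32.0, and Rab23, an inhibitor of Hedgehog signalling, at 8.1 to 78.6, lay below the floor on all 4 arrays.

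Of the genes for binding partners, Rab3il1, an exchange factor for Rab3a, read 114 at 1 h, against 198.5, 203 and 177 at 2, 4 and 6 h. It was the one Rab probe set at least 1.5-fold below each other array at 1 h, where 0.931% of all were, and it was dim. It was thus lowest at the time when Rab3a and Rab3b were highest, which for Rab3b did not hold after scaling to a common median. Rab3ip, an exchange factor for Rab8, read 347, 332, 376 and 374, and its second probe set 151, 149.9, 154 and 164. Rab11fip5, an effector of Rab11, read 649, 779.8, 593 and 641, highest at 2 h. Rab5if, named for binding Rab5, read 2220.2, 1830.0, 2226 and 2109.9, lowest at 2 h.
The probe set named Rab10os, for a transcript opposite to Rab10, read 213 at 6 h and 114 at 4 h and lay below the floor at 1 h and 2 h, so it was at least 2.11-fold higher at 6 h than at those times. That of Rab26os passed the floor at 6 h alone, at 126. The probe sets of Rab10 itself spanned 1.25-fold and 1.18-fold, and Rab26 itself was not among the members.

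Probe sets of the same gene gave a limited check on these courses, because they were read from the same sample on the same array. Of the 8 Rab genes with at least 2 probe sets above the floor on all 4 arrays, 2 (Rab31 and Rab7) had the same highest array in both of the brightest, or 25%, against 31.9% of such genes over the array. The lowest array was shared by 4 (Rab11a, Rab14, Rab31 and Rab3ip), or 50%, against 29.8%. The shared lowest array was 2 h for Rab11a, Rab14 and Rab3ip and 6 h for Rab31. In the second Rab3ip probe set the low was slight, at 149.9 at 2 h and 150.7 at 1 h. The part of RNA quality in the shared lows at 2 h was not tested. Both arrays were shared in Rab31 alone of these 8 genes, or 12.5%, against 13.4% over the array. Rab genes with a single probe set above the floor on all 4 arrays had no such check.

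Genes that load, switch and use Rabs were taken from a list of 109 symbols, of which 41 were on the array and 38 above the floor on all 4, counting the brightest probe set of each. Of these, 7 spanned at least 1.5-fold, or 18.4%, against 27.9% of all probe sets. At 2 h their median against the other times was 0.01, with 19 above and 19 below, so the tilt of the Rab probe sets at 2 h was not seen in their regulators, although the difference was not tested. After scaling to a common median theirs was −0.07, as was that of all probe sets.

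Among regulators, Gdi2, the GDP dissociation inhibitor that takes Rabs off membranes, read 1634 at 2 h, against 2391, 1827 and 2069 at 1, 4 and 6 h. Rabac1, the prenylated Rab acceptor, read 5319 at 6 h, against 4638, 4086 and 4338 at 1, 2 and 4 h. Both were lowest at 2 h, as were 20 of the 38 Rab probe sets, Rab3a among them, and 26.7% of all probe sets.
Rabggta, the alpha subunit of geranylgeranyl transferase, read 207, 301, 268 and 364, highest at 6 h. Ccz1, part of the exchange factor of Rab7, read 252 at 4 h, against 468, 411 and 395 at 1, 2 and 6 h. Those 2 genes thus did not share a course. Golga5, a golgin that binds Rab1, read 191 at 2 h, against 294, 226 and 239.
The GTPase-activating domain proteins Tbc1d24, Tbc1d20 and Evi5 also varied. Tbc1d24 read 1926, 1249, 1217.5 and 884, lower at each later time with a span of 2.18-fold, on a probe set of the kind with shared probes. Tbc1d20, which acts on Rab1, read 570.0, 449, 381 and 375, and Evi5 read 609.6 at 4 h, against 406, 372 and 526.5. The first pair was lowest at 6 h, while Evi5 was highest at 4 h.

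Other branches of the small GTPases gave similar small values, each by 1 probe set per gene. At 2 h the median log2 difference from the other times was −0.11 for 9 Ras family genes and −0.13 for 9 Arf and Sar family genes, beside −0.08 for the 38 Rab probe sets. Those above at 2 h numbered 4 of 9 and 3 of 9, where 52.0% of all probe sets were above. A span of at least 1.5-fold was met in 1 gene of each of these families, or 11.1%, against 27.9% of all probe sets. Differences between the families were not tested.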

How the data were processed

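Each of 4 CA1 samples, 1 per time, was read on 1 array. The authors deposited 1 linear intensity for each probe set, with arrays already matched in level, at a trimmed mean of 500.3 for every array. Their software is not given in the sources used here. Members were found by symbol in the platform's annotation, and the gene identifiers of all 51 led to the same symbols in RefSeq. Each array was scaled to a common trimmed mean, 2% off each end, over 12422 probe sets, leaving out 66 controls. The factors were 0.9992 to 1.001. A floor was then set at the 40th percentile, 100.8, before taking log2. Levels and folds printed are from the scaled intensities before the floor.

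All probe sets that matched are described, with values on each array for those above the floor on at least 3 arrays. Of the regulators, the 6 with the widest range, Gdi2 and Rabac1 are named. Promoters stand in for protein sequences, which were not used here, and the genes they show were chosen after their values were seen. Compartments were assigned by hand. The members and lists were chosen with earlier results of these data known. With 1 array per time no test was run, and precision is limited by the number of arrays. The calculations were tested on simulated data with changes of known size. The alternatives were other scalings, floors, fold limits and members. The tools were pandas 2.3.3 and NumPy 2.4.6 under Python 3.11.15, with matplotlib 3.10.9 for plots.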

Additional observations from a re-analysis of the deposited data

How the results depend on the processing

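The median of the Rab probe sets at 2 h against the other times lay between −0.15 and −0.07 (log2) over all alternatives, and that at 6 h between 0.03 and 0.12. At 1 h, where it was 0.00, it turned to −0.043 after scaling to a common median and to −0.009 with the floor at the 20th percentile. At 4 h it turned from above to below, at −0.031, without the 2 h array among the other times. The 7 of 38 Rab probe sets spanning at least 1.5-fold became 11 of 44 with the floor at the 20th percentile. With the floor at the 60th percentile they were 3 of 32. The shares of all probe sets at these floors were not counted. With limits of 1.3-fold and 2-fold they were 16 and 1 of 38, against 54% and 6.33% of all. Among those averaging 500 or more they were 2 of 24, against 12.4% of all, an alternative chosen after seeing the data. Without the 2 h array there were 5, so that Rab3a and the dim Rab14 probe set fell out, and without the 6 h array 6; these too were added after seeing the data. Courses higher and lower at each later time numbered 1 each, against 3.9% and 4.86% of all probe sets. After scaling to a common median they numbered 2 each, and the shares of all were not counted. The causes of these differences were not tested beyond the floor and limits themselves, which set how many probe sets count. No paired analysis was possible because each time has 1 array. Dim probe sets near the floor limit what can be read for Rab14, Rab25 and Rab3il1.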
